A study of Homo sapiens with 4 samples.

Results

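Divergent promoter transcripts are long noncoding RNAs that start beside the promoter of another gene and run away from it on the opposite strand. They were taken here as every row whose symbol ends in -DT, which gave 448 of the 25283 rows of the gene table. Each was set against its partner, the gene whose symbol stands before -DT. The partner had a row of its own for 445 of them and none for the partners of NCMAP-DT, TOMM20L-DT and IRX2-DT. The rule used symbols and no measured value.

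RNA was sequenced from cells labelled as neurons that had been made from the established human embryonic stem cell line H1 by way of neural progenitors. The control group of 2 libraries is labelled wild type with an empty vector, and the U1_OE group of 2 libraries is labelled as overexpressing U1 snRNA. Both groups share the H1 line, the differentiation and a lentiviral vector left on the cells for 36 hours. The treatment text of the control libraries also names the U1 vector, so the grouping rests on their titles and genotype labels. The sources used here do not give the promoter of the vector, and no label says whether replicate libraries stem from separate cultures. The p-values therefore measure the spread between these libraries, which may be technical.

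Many human promoters fire in both directions. The RNA polymerase that leaves upstream usually makes an unstable RNA, which is ended early by polyadenylation-site cleavage or by the Integrator complex and degraded by the nuclear exosome. U1 snRNA pairs with 5′ splice sites as the start of splicing. It also shields nascent transcripts from early cleavage at polyadenylation signals, and sites for U1 are known to be denser on the coding side of such promoters than on the upstream side. The RNAs that have earned a -DT symbol are the longer and often spliced part of this output, a few with functions of their own and most without a known one.

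The labelled cell type was checked first. Summed over 13 measured neuron markers of 15 listed, the level was 248 and 179 CPM, the counts scaled to library size with TMM factors, in the controls and 352 and 392 in U1_OE, and 7 of the 15 reached 1 CPM in every library. The 15 mesenchymal and fibroblast markers, among them collagens and fibronectin, all reached 1 CPM in every library and summed to 79640, 90324, 95568 and 89273 CPM in control 1, control 2, U1_OE 1 and U1_OE 2, an order of libraries kept throughout. The neuron markers ELAVL3 and ELAVL4 had no row. The marker levels thus go against the label, and the material is called the cells here. The summed neuron, microglia and blood, and endothelial markers were higher in both U1_OE libraries than in both controls, and the summed astrocyte markers were lower (1186, 1403, 999 and 1002 CPM). Nearly all of the astrocyte sum was GJA1, a gap junction gene, at 1178, 1384, 973 and 980 CPM, and the median log2 fold change over the tested astrocyte markers went the other way (0.84). The part of these markers in the results below was not tested. In bulk RNA, fewer cells of a type and less RNA per cell cannot be told apart.

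The position of the transcripts was read from the GENCODE v29 annotation of GRCh38, which held 433 of the 448 and both members of 430 pairs. All 430 pairs lay on opposite strands. The gap between the nearest annotated start sites of a pair, negative where the 5′ ends overlap, had a median of 127 bases and quartiles of 57 and 260.25 bases. In 46 pairs the 5′ ends overlapped, and in 19 the starts were over 1000 bases apart. The transcripts were mostly spliced, with a single exon in 87 of 433 (20.1%). Their exons, merged over all annotated isoforms of a gene, had a median length of 1483 bases against 6006 for the partners. The polyadenylation signal AATAAA stood in the last 50 bases of an annotated transcript of 229 (52.9%), compared with 376 of 445 partners. It stood in the first 1000 bases of the longest spliced transcript of 178 (41.1%), compared with 104 partners. In a short transcript these 1000 bases can take in its own annotated end, so the counts for the shorter divergent transcripts and for the partners are not alike.

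Overlap limits what the counts can say. The library protocol names no strand marking, so it is not known whether reads from 2 overlapping genes on opposite strands were told apart. Overlap was taken between whole genes, introns included, so overlapping genes need not share any exon. Of the 433 annotated transcripts, 111 (25.6%) overlapped the partner gene, 163 (37.6%) overlapped some other gene, and 209 (48.3%) overlapped none.

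The bidirectional promoters were GC-rich. In RefSeq windows of GRCh38.p14, from 250 bases before a start site to 50 after it, the median GC content was 69.0% on the side of the divergent transcripts (349 windows) and 68.0% on the side of the partners (375 windows), against 58.3% over all 27305 windows. The ratio of observed to expected CpG was 0.896, 0.903 and 0.580 in the same order. The GC box GGGCGG, on either strand, was found in 73.4% of the windows of divergent transcripts, 73.6% of partner windows and 44.6% of all. The ETS-type motif CCGGAAG was found in 20.9%, 25.3% and 10.7%, the CCAAT box in 31.2%, 39.2% and 35.7%, and the TATA box TATAAA in 3.44%, 4.80% and 11.95%. The windows of a pair can overlap and then share their letters. Of the splice-site-like words, GGTGAG was found on either strand in 21.2%, 15.7% and 20.0%, and GGTAAG in 7.45%, 4.27% and 7.90%. These are matches of letters, not sites shown to be bound.

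The stretch between the 2 start sites of a pair is shown for 6 pairs whose values are given below, since it is the promoter that both members share. MAP4K3-DT, RRAGC-DT and FAM111A-DT were lower in both U1_OE libraries, WDR5B-DT and JTB-DT were higher in both, and NCK1-DT was higher relative to its partner. The letters are from RefSeq on GRCh38.p14, read 5′ to 3′ on the partner's strand, so the partner starts after the right end and the divergent transcript leaves from the left end. Capitals mark the GC box, the ETS-type motif, the CCAAT box and the TATA box named above, on either strand. The stretch of MAP4K3-DT is chr2:39437286-39437415 (minus strand), that of RRAGC-DT chr1:38859773-38859892 (minus), that of FAM111A-DT chr11:59142809-59142855 (plus), that of WDR5B-DT chr3:122416063-122416205 (minus), that of JTB-DT chr1:153977675-153977742 (minus) and that of NCK1-DT chr3:136862064-136862207 (plus).
MAP4K3-DT: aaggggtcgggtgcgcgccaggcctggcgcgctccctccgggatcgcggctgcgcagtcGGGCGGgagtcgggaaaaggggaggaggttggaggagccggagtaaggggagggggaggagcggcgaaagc
RRAGC-DT: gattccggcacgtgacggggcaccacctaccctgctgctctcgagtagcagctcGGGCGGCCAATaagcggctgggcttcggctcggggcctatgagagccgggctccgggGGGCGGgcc
FAM111A-DT: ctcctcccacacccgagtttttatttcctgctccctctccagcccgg
WDR5B-DT: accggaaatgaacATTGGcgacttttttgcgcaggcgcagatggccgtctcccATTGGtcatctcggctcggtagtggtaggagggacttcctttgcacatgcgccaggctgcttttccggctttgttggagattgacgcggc
JTB-DT: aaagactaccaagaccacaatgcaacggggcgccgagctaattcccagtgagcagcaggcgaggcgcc
NCK1-DT: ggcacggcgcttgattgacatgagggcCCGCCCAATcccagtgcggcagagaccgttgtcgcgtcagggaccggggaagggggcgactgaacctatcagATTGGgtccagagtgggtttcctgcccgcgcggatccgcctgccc

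The 6 stretches were between 47 and 144 bases long. GC content was 73.1% for MAP4K3-DT and 71.7% for RRAGC-DT, with 1 and 2 GC boxes, and RRAGC-DT also had 1 CCAAT box. It was 59.6% for FAM111A-DT and 60.3% for JTB-DT, neither of which held any of the 4 motifs. The WDR5B-DT stretch had 56.6% GC and 2 CCAAT boxes, both on the strand opposite to the print. The NCK1-DT stretch had 66.7% GC, 1 GC box and 2 CCAAT boxes, 1 of which overlaps the GC box. None held TATAAA. The 3 transcripts that were lower in U1_OE thus came from stretches with and without GC boxes.

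Most divergent transcripts were scarce. Their mean level over the 4 libraries had a median of 0.846 CPM and ranged from 0.0531 to 39.4 CPM, against a median of 20.8 CPM for the partners. A level of 1 CPM was reached by 203, 5 CPM by 46 and 10 CPM by 18. In 125 of the 448, at least 1 library had no count. Deposited totals of 16713505 to 19057423 counts per library thus left most of these transcripts with few counts, and their mean count per library had a median of 14.75.

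Levels of different genes were compared per kilobase of exon, with the exons of all annotated isoforms merged. A gene with many isoforms can get a lower value by this measure. The median was 0.636 CPM per kb for divergent transcripts and 3.52 for partners over the 430 annotated pairs, and the median of the ratio within a pair was 0.167. The divergent transcript was the higher member in 83 pairs (19.3%) and stood at less than 0.1 of its partner in 171. BSN-DT, beside the gene of the presynaptic scaffold bassoon, reached 4.29 CPM per kb against 0.0125 for BSN, a ratio of 342, and overlaps no annotated gene. Its level was 9.12, 11.1, 11.4 and 13.1 CPM. PIWIL2-DT, beside a gene of the germline piRNA pathway, had 3.89 against 0.0344 CPM per kb but overlaps POLR3D, a subunit of RNA polymerase III. CEP192-DT, beside a centrosome scaffold gene, had 18.9 against 0.653 and overlaps SEH1L, a nuclear pore gene. EMSY-DT, which overlaps none, had 9.07 against 0.888. These were picked from the top of the ratios after their values were seen, and for those that overlap another gene part of the reads may belong to it.

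**Figure D1:**
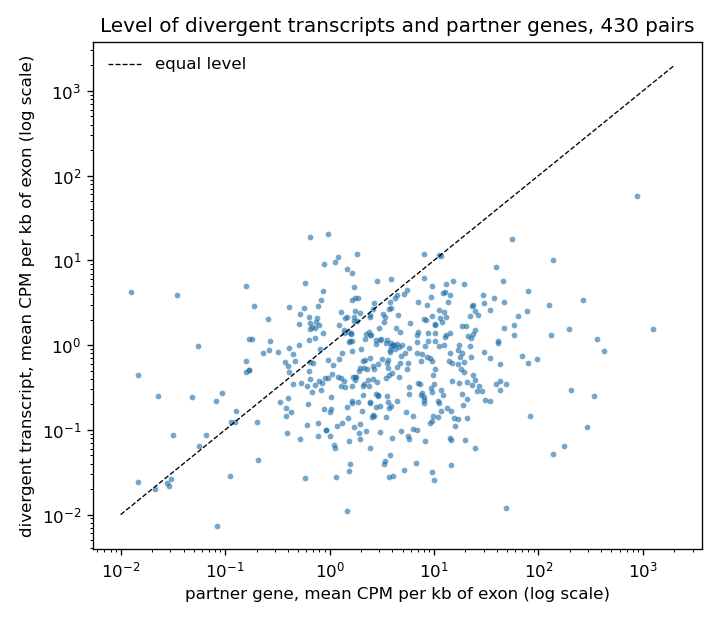
Mean level over the 4 libraries in CPM per kb of exon, on log scales, of each divergent transcript (vertical) against its partner (horizontal) for 430 annotated pairs, with the dashed line at equal level. Most points lie below the line, and 83 lie above it.

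Over the whole set, divergent transcripts were lower in the U1_OE libraries more often than they were higher, while their partners were balanced. The median log2 fold change of U1_OE over control was -0.25 over all 448, without any filter on level, and 287 of them (64.1%) were negative. The 25283 rows of the table had a median of -0.01 with 50.7% negative, and the 445 partners had a median of 0.01 with 208 negative. Groups are called apart here when both U1_OE libraries lay on the same side of both controls. They were apart and lower in 126 divergent transcripts (28.1%), where the share over all rows was 19.6%, and apart and higher in 43 (9.60%), where the share over all rows was 17.3%. In the other 279 the groups overlapped. Among the partners 93 were apart and lower and 99 apart and higher.

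The same held among the better counted rows. With a mean of at least 50 counts there were 97 divergent transcripts, with a median log2 fold change of -0.14 and 68 (70.1%) negative. Their groups were apart and lower in 35 (36.1%), against 21% of all 12271 rows at that level, and apart and higher in 9 (9.28%), against 22.3%. Between 10 and 50 counts, 164 divergent transcripts had a median of -0.29 with 65.9% negative, and the 4818 rows of the table in that range had -0.13 with 56.5% negative. Under 10 counts, 187 had -0.33 with 59.4% negative, and the 8194 rows had -0.04 with 51.4% negative. Rows of 10 to 50 counts thus leaned lower in U1_OE in the table as a whole too, and the median of the divergent transcripts was below that of the table within each range.

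**Figure D2:**
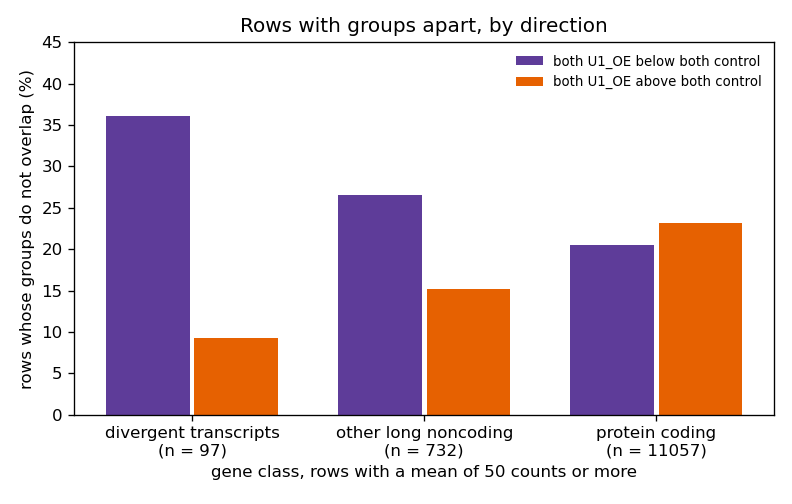
Share of rows, among those with a mean of at least 50 counts, in which both U1_OE libraries lay below both controls (purple) or above both (orange), by annotated class. The bars for 97 divergent transcripts are 36.1% and 9.28%, those for 732 other long noncoding RNAs 26.5% and 15.2%, and those for 11057 protein-coding genes 20.5% and 23.2%.

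Other noncoding RNAs leaned the same way by a smaller amount. Of 995 antisense RNAs named -AS whose host gene was in the table, the median log2 fold change was -0.15, with 585 (58.8%) negative. With at least 50 counts there were 239, with a median of -0.12 and 62.3% negative, of which 29.3% were apart and lower and 11.3% apart and higher. The 732 annotated long noncoding RNAs at that level, counted without the divergent transcripts, had a median of -0.08 and 57.5% negative. This class may hold some of the same antisense RNAs. The 11057 protein-coding genes had a median of 0.02 and 47.0% negative. The difference between divergent transcripts and these classes was not tested.

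The shift was present in both libraries of each group. Among rows with a mean of 10 counts or more, the median deviation of the 261 divergent transcripts from their own mean over the 4 libraries was 0.11, 0.10, -0.10 and -0.13 on the scale of log2(CPM + 0.5). It was between -0.01 and 0.03 in every library for 432 partners and between -0.01 and 0.01 for all 17089 rows. For 597 antisense RNAs it was 0.07, 0.10, -0.04 and -0.09. Of the 261 divergent transcripts, 94 had their lowest value in U1_OE 1, 88 in U1_OE 2, 37 in control 1 and 42 in control 2. The highest value fell in control 1 for 85, in control 2 for 87, in U1_OE 1 for 55 and in U1_OE 2 for 34.

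**Figure D3:**
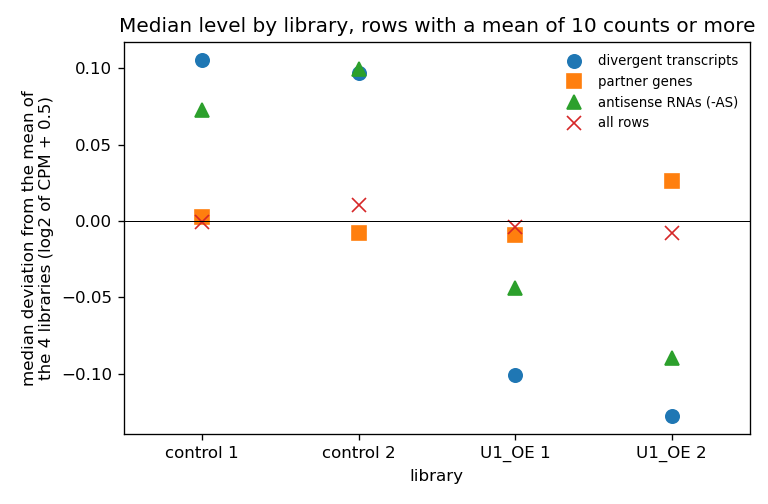
Median, over rows with a mean of at least 10 counts, of each row's deviation from its mean of the 4 libraries, in log2(CPM + 0.5), by library, for divergent transcripts (circles), partner genes (squares), antisense RNAs (triangles) and all rows (crosses). Divergent transcripts sit at 0.11 and 0.10 in the controls and at -0.10 and -0.13 in U1_OE, and the partners and all rows stay between -0.01 and 0.03.

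The summed level of all 448 divergent transcripts was 1033 and 977 CPM in the controls and 905 and 846 CPM in U1_OE. Both U1_OE sums lay below both controls. The means were 1005 ± 39.3 and 875 ± 41.6 CPM (SD, n = 2 libraries each), a ratio of 0.871. The two-sided exact permutation test gave p = 0.3333, the smallest that 2 libraries against 2 allow. No single row made up more than 4.19% of the sum.

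No single divergent transcript passed the test across all genes. The quasi-likelihood test of edgeR, adjusted by Benjamini-Hochberg over all genes, called 0 of 17317 tested genes (0%) and so 0 of the 270 divergent transcripts that passed its filter on low counts, among which the lowest adjusted p was 0.459. The other 178 were too scarce to test. At an unadjusted p under 0.05 there were 18 divergent transcripts, all lower in U1_OE, where 4.72% of tested genes were lower and 4.36% higher by that rule. The 18 make up 6.67% of the 270, and 0 were higher. limma-voom also called 0, with 16 at an unadjusted p under 0.05, all lower. DESeq2 called 179 genes, of which 101 were higher (0.548% of 18420 genes with an adjusted p) and 78 lower (0.423%), and among them 1 of 315 divergent transcripts. DESeq2 gave 13 divergent transcripts an unadjusted p under 0.05, 9 of them lower. The shares of all genes under that threshold by limma-voom and by DESeq2 are not given here, so the 16 and the 13 stand without a background. A transcript seen mainly in 1 group can pass a filter on counts through that group alone, so these counts over the tested rows support nothing about the set.

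The 1 divergent transcript called by DESeq2 was RAB17-DT, beside the gene of a small GTPase of epithelial membrane traffic. It had 0, 0, 81 and 3 counts, or 0, 0, 4.99 and 0.157 CPM. The value rests on U1_OE 1, since the other U1_OE library had only as many counts as the floor of 3 used for a count of 0. Set against that floor per library, the U1_OE mean was at least 15.0-fold higher. The DESeq2 adjusted p was 0.0402, and edgeR without a filter gave an unadjusted p of 0.0332 and a Benjamini-Hochberg adjusted p of 0.702. RAB17, which overlaps it, had 0.294, 0.608, 6.84 and 0.891 CPM and stood highest in the same library.

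The 6 most abundant divergent transcripts showed no common direction. GARS1-DT, beside the glycyl-tRNA synthetase gene, was the highest, at 47.9, 42.7, 34.1 and 32.9 CPM. Both U1_OE libraries were below both controls, with a log2 fold change of -0.43 ± 0.14 (SE) and an edgeR adjusted p = 0.501. GARS1 was at 245, 208, 242 and 276 CPM, with overlapping groups. The ratio of transcript to partner was lower in both U1_OE libraries, by 0.62 on the log2 scale. GARS1-DT lies at chr7:30516309-30594809 on the minus strand and overlaps its partner and 5 other annotated genes.

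WDR5B-DT, beside a WD-repeat gene related to the histone methylation scaffold WDR5, was at 30.8, 27.3, 34.2 and 33.8 CPM, higher in both U1_OE libraries (log2 fold change 0.23 ± 0.14, adjusted p = 0.683). WDR5B was at 5.36, 5.58, 3.20 and 3.88 CPM, lower in both (-0.63, adjusted p = 0.573). The pair thus moved apart, with a log2 ratio 0.79 higher in U1_OE and no overlap between groups. WDR5B-DT was the more abundant member in every library. It lies at chr3:122416207-122443180 on the plus strand and overlaps KPNA1, a nuclear import receptor, so some of its reads may be from that gene.

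ARGLU1-DT, beside a gene of splicing and transcription, was at 17.6, 19.4, 14.7 and 15.0 CPM, lower in both U1_OE libraries (log2 fold change -0.32, adjusted p = 0.624), as was ARGLU1 at 73.6, 79.8, 68.3 and 69.3. The other three of the 6 had overlapping groups. BAIAP2-DT, beside the gene of an actin-linked membrane scaffold, was at 17.5, 20.8, 18.8 and 17.2 CPM. ANKRD13C-DT was at 19.1, 14.7, 24.6 and 12.6, and SLC12A2-DT, beside the sodium, potassium and chloride cotransporter gene, at 18.0, 13.4, 12.6 and 17.1. For these last 3 the direction depended on which library was counted.

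Among the 97 with a mean of at least 50 counts, 7 had an unadjusted edgeR p under 0.05 (7.22%), all lower in U1_OE, where 4.93% of all tested genes at that level were lower and 5.2% higher by that rule. Besides GARS1-DT they were EDIL3-DT, MAP4K3-DT, RRAGC-DT, MAP3K2-DT, RNF32-DT and FAM111A-DT, which were singled out after their values were seen. In all 7 both U1_OE libraries were below both controls. None passed the adjustment over all genes, with edgeR adjusted p from 0.459 (EDIL3-DT, MAP4K3-DT and RNF32-DT) to 0.534 (RRAGC-DT).

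EDIL3-DT, beside the gene of an integrin-binding matrix protein, was at 15.2, 14.8, 6.77 and 9.02 CPM. The U1_OE libraries stood well below the closely matched controls (log2 fold change -0.92 ± 0.22). EDIL3 was at 229, 251, 203 and 221 CPM (-0.18). The log2 ratio of the pair was lower in both U1_OE libraries, by 0.72. EDIL3-DT lies at chr5:84384427-84490765 on the plus strand and overlaps its partner.

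MAP4K3-DT and RRAGC-DT both stand beside genes of the amino acid arm of mTORC1 signalling, a kinase and a Rag GTPase. MAP4K3-DT was at 16.8, 12.7, 5.54 and 8.23 CPM (-1.09 ± 0.28) and MAP4K3 at 29.8, 26.9, 25.6 and 22.7 (-0.23). RRAGC-DT was at 10.1, 6.75, 5.05 and 2.57 CPM (-1.15 ± 0.42) and RRAGC at 47.2, 46.4, 37.4 and 34.4 (-0.38). All 4 genes were lower in both U1_OE libraries, and the transcripts by more than their partners, with log2 ratios lower by 0.83 and 0.71 and no overlap between groups. MAP4K3-DT (chr2:39436637-39665343, plus strand) overlaps its partner and TMEM178A, and RRAGC-DT (chr1:38860000-38919396, plus strand) overlaps MYCBP, RHBDL2 and other genes.

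FAM111A-DT, beside the gene of a protease that acts at replication forks, was at 4.53, 4.53, 2.40 and 2.36 CPM (-0.93 ± 0.30). FAM111A itself was at 23.9, 24.4, 7.94 and 16.3 (-0.99). Both members were lower together, and the log2 ratio of the pair had overlapping groups. MAP3K2-DT, beside a kinase gene of the MAP kinase cascade, was at 6.004, 6.36, 4.003 and 3.67 CPM (-0.69 ± 0.25) and MAP3K2 at 8.36, 10.8, 6.53 and 8.34, again with overlapping ratios. MAP3K2-DT (chr2:127389130-127400580, plus strand) overlaps no annotated gene. RNF32-DT (chr7:156472196-156640654, minus strand) was at 7.24, 5.97, 2.28 and 3.09 CPM (-1.29 ± 0.30), and RNF32 was too scarce to test. Of the partners of these transcripts, EDIL3, MAP4K3, RRAGC, FAM111A and, narrowly, MAP3K2 were lower in both U1_OE libraries, while GARS1 had overlapping groups. Among all 400 partners with a mean of at least 50 counts, 21% were apart and lower. Since the transcripts were picked by their own p after their values were seen, this describes these pairs only.

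**Figure D4:**
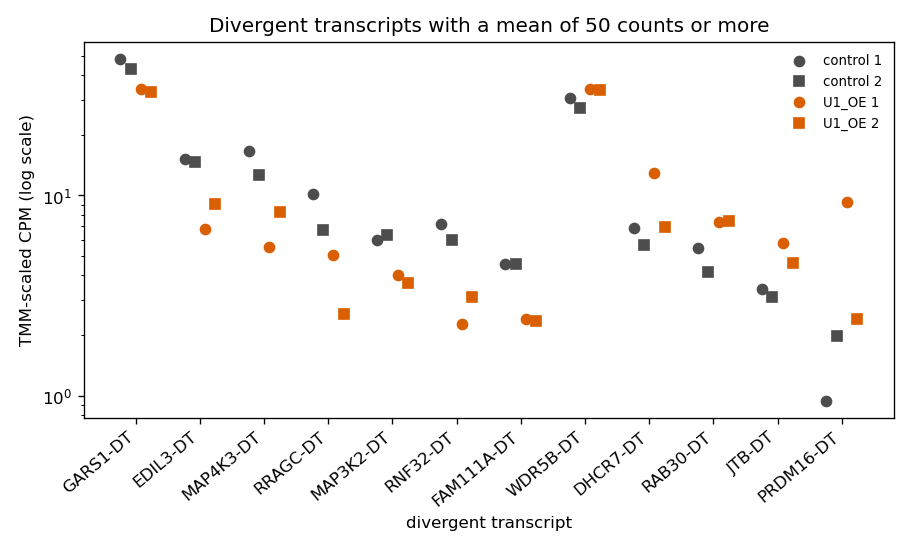
Level in each library, in CPM on a log scale, of 12 divergent transcripts with a mean of at least 50 counts, with control libraries in grey and U1_OE libraries in orange (circles library 1, squares library 2). The 7 on the left, with an unadjusted edgeR p under 0.05, have both U1_OE points below both controls. The 5 on the right have both above and were picked from 9 such transcripts, with PRDM16-DT spread from 0.942 to 9.30 CPM. The panel does not show the balance of directions, since 35 transcripts at this level were apart and lower.

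The largest differences with groups apart were in scarcer transcripts. CDC37L1-DT, beside a cochaperone gene of the heat shock protein Hsp90, was at 2.83, 3.26, 1.17 and 0.577 CPM (log2 fold change -1.80 ± 0.52, edgeR adjusted p = 0.482), while CDC37L1 was at 16.4, 13.8, 15.2 and 14.9. The ratio of this pair was lower in U1_OE by 1.40 on the log2 scale, the largest negative difference among the pairs that met the naming rule, and the transcript overlaps no annotated gene. It lies at chr9:4676600-4679502 on the minus strand. TMED2-DT, beside a cargo receptor gene of the early secretory pathway, was at 1.65, 2.10, 0.431 and 0.681 CPM (-1.73, adjusted p = 0.512), with TMED2 at 318, 321, 336 and 306. TMED2-DT overlaps TMED2, so part of its reads may be from that gene. In these pairs the partner showed no separation of the groups.

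DNAJB5-DT, beside a heat shock cochaperone gene, was at 0.942, 1.11, 0.185 and 0.157 CPM (log2 fold change -2.54, edgeR adjusted p = 0.492) and DNAJB5 at 7.36, 7.35, 7.39 and 8.96. PPM1K-DT, beside the gene of the mitochondrial phosphatase of branched-chain amino acid breakdown, was at 1.35, 1.99, 0.554 and 0.472 (-1.69, adjusted p = 0.524) and PPM1K at 11.9, 10.2, 10.5 and 11.4. ZFP28-DT, beside a zinc finger gene, was at 2.18, 2.10, 0.739 and 0.315 (-2.02, adjusted p = 0.501) and ZFP28 at 4.65, 6.80, 4.19 and 4.40. In all 3 the transcript was lower in both U1_OE libraries and the log2 ratio to the partner was lower by at least 1.04. FAM193B-DT was at 0.942, 2.65, 0 and 0.367 CPM (-3.20, adjusted p = 0.571), C16orf95-DT at 2.35, 3.82, 0 and 1.68 (-1.85, adjusted p = 0.737) and ZBTB44-DT at 1.88, 0.442, 0.185 and 0, so that each of these rests on few counts. NCMAP-DT had 38 and 11 counts in the controls and none in U1_OE, at least 8.32-fold lower against a floor of 3 counts per library. It overlaps RCAN3.

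Fewer transcripts were higher, and among the 270 that passed edgeR's filter none of them reached an unadjusted p under 0.05 by edgeR or limma-voom. RAB17-DT, described above, did not pass that filter. PRDM16-DT, beside the gene of a transcription factor of brown fat and neural stem cells, was at 0.942, 1.99, 9.30 and 2.41 CPM (log2 fold change 1.98 ± 0.78, edgeR adjusted p = 0.554). DESeq2 gave PRDM16-DT an unadjusted p of 0.0208 and an adjusted p of 0.467. PRDM16 was at 1.30, 2.38, 10.8 and 3.98 CPM (2.00, adjusted p = 0.492). Both members stood far above the rest in U1_OE 1, and their ratio had overlapping groups. JTB-DT, beside a gene of a membrane protein, was at 3.41, 3.10, 5.79 and 4.61 CPM (0.67 ± 0.29, adjusted p = 0.571) while JTB was at 186, 207, 195 and 176, and the ratio was higher in both U1_OE libraries by 0.68. RAB30-DT, beside a Golgi GTPase gene, was at 5.47, 4.15, 7.33 and 7.44 CPM (0.62, adjusted p = 0.562), and DHCR7-DT, beside the gene of the last enzyme of cholesterol synthesis, at 6.89, 5.64, 12.9 and 6.97 (0.67, adjusted p = 0.654). These last 2 were picked after their values were seen.

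The other transcripts named for being higher with groups apart had under 40 counts on average. B4GAT1-DT, beside a gene of dystroglycan glycosylation, was at 1.30, 1.77, 2.96 and 2.15 CPM. PRMT5-DT, beside an arginine methyltransferase gene, was at 0.294, 0.774, 1.48 and 0.944, and SETBP1-DT at 0.412, 0.885, 1.54 and 1.10. MMADHC-DT, beside a cobalamin traffic gene, was at 0.706, 0.387, 0.862 and 1.47, VIRMA-DT, beside a gene of the RNA methylation complex, at 0.530, 0.885, 0.985 and 1.36, and COL6A2-DT, beside a collagen gene, at 0, 0.498, 0.862 and 0.944. Their edgeR adjusted p lay between 0.682 (B4GAT1-DT) and 0.770 (VIRMA-DT). COL6A2 itself was higher in both U1_OE libraries (log2 fold change 0.59). MMADHC-DT overlaps its partner, B4GAT1-DT overlaps SLC29A2 and PRMT5-DT overlaps HAUS4, so part of their reads may be from those genes.

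The pair comparison showed the divergent member lower relative to its partner more often than higher. Each pair was described by the log2 ratio of its members, with 0.5 CPM added to both, and the ratio was compared between groups. Over all 445 pairs the median difference was -0.15, with 277 negative and 168 positive. Groups of the ratio were apart and lower in 117 pairs (26.3%) and apart and higher in 45 (10.1%). Among the 995 pairs of an antisense RNA and its host, which gives the background here, the shares were 24.6% and 15.9%, and the median difference was -0.11 with 586 negative. In the 256 pairs with a mean of at least 10 counts in both members, the median ratio was -3.17, -3.35, -3.47 and -3.64 by library, both U1_OE libraries lowest, and the median difference was -0.21 with 171 negative. The share of antisense pairs with the ratio apart and lower was close to that of the divergent pairs.

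Within those 256 pairs the differences between groups in level, on the scale of log2(CPM + 0.5), went down in both members in 94 pairs and up in both in 49. The divergent transcript was lower and the partner higher in 82, and the reverse held in 31. The correlation of the 2 differences across pairs was 0.39 (Pearson) and 0.27 (Spearman), and 0.44 (Pearson) over the 96 pairs with at least 50 counts in the divergent transcript. All pairs share the same 4 libraries and are not independent, and overlapping members can share reads, so these are descriptions only.

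**Figure D5:**
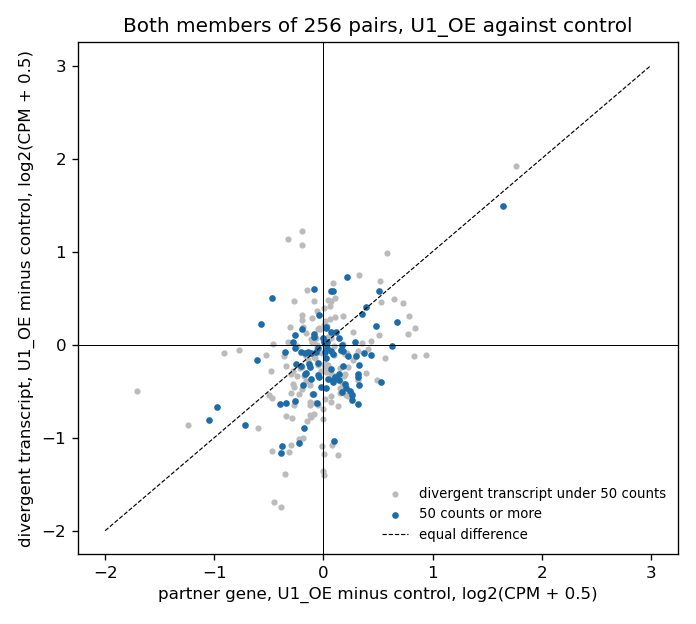
Difference between the U1_OE and control means of log2(CPM + 0.5) in the divergent transcript (vertical) and in its partner (horizontal) for 256 pairs with a mean of at least 10 counts in both members, in blue where the divergent transcript had at least 50, with the dashed line at equal difference. The lower right, with the divergent transcript lower and the partner higher, holds 82 pairs and the upper left 31.

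In 4 of the 5 pairs named for a higher ratio in U1_OE the partner was lower in both U1_OE libraries, the exception being B4GAT1. A lower partner raises the ratio by itself, so choosing pairs by that ratio favours lower partners. Over all 445 partners, 20.9% were apart and lower. WDR5B is described above. NCK1-DT, beside the gene of an SH2 and SH3 adaptor of receptor signalling, was at 4.41, 2.76, 7.88 and 3.36 CPM with overlapping groups, and NCK1 was at 35.3, 25.9, 20.0 and 23.3, lower in both U1_OE libraries. The log2 ratio was higher by 0.98, and NCK1-DT overlaps SLC35G2. ADM-DT, beside the gene of the vasodilator peptide adrenomedullin, was at 1.88, 2.27, 1.60 and 2.41 CPM, with ADM at 312, 214, 110 and 208 and a ratio higher by 0.72. NSMCE1-DT, beside a gene of the SMC5/6 complex, was at 0, 0.774, 2.09 and 0.681 CPM, with NSMCE1 at 32.4, 31.4, 25.4 and 25.4, and the ratio was higher by 1.46 on few counts. NSMCE1-DT overlaps NSMCE1, so part of its reads may be from that gene. The direction of the NCK1-DT and ADM-DT transcripts themselves changed when a library was left out.

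Among the partners edgeR called 0 of 431 tested, with 21 higher (4.87%) and 19 lower (4.41%) at an unadjusted p under 0.05, near the 4.36% and 4.72% of all tested genes. DESeq2 called 4, with CD44 and OSMR higher and GAS6 and LYPLAL1 lower, where it called 0.548% of all genes higher and 0.423% lower. Their divergent transcripts are given beside them. GAS6, a ligand of the TAM receptor kinases, was at 719, 540, 259 and 388 CPM (DESeq2 adjusted p = 0.0273), and GAS6-DT was lower with it at 11.9, 8.85, 5.05 and 7.76 CPM. LYPLAL1, a lysophospholipase-like gene, was at 34.0, 24.1, 12.1 and 11.6 CPM (DESeq2 adjusted p = 0.0152), and LYPLAL1-DT was scarce at 0.471, 2.38, 0.185 and 0.734. OSMR, the oncostatin M receptor, was at 59.8, 71.1, 116 and 118 CPM (DESeq2 adjusted p = 0.00348), while OSMR-DT was at 4.24, 1.11, 2.09 and 3.25 with overlapping groups. CD44, a hyaluronan receptor, was at 83.5, 87.1, 188 and 275 CPM (DESeq2 adjusted p = 1.3e-06), and CD44-DT had at most 0.367 CPM in any library. Of these 4, only GAS6-DT had groups apart.

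The lean towards lower values was present with and without overlap with other genes. The 209 divergent transcripts that overlap no annotated gene had a median log2 fold change of -0.27 with 133 negative, the 111 that overlap the partner -0.27 with 74, and the 113 that overlap only another gene -0.16 with 72. At 50 counts or more the medians were -0.26 (29 transcripts, 23 negative), -0.25 (33, 24) and -0.08 (29, 18). Where neither the transcript nor the partner overlaps another gene, 16 of 17 transcripts with at least 50 counts were negative, with a median of -0.28. Among all rows of the table with at least 50 counts, 47.9% were negative. Of the 93 such transcripts at any level 64 were negative. The median pair difference of these 93 was -0.13, with 57 pairs negative.

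The medians were negative in every subset by structure. The 297 pairs whose starts lie 0 to 300 bases apart had a median of -0.28 for the divergent transcript, the 68 with starts further apart but within 1000 bases -0.14, the 46 whose 5′ ends overlap -0.20, and the 19 with starts over 1000 bases apart -0.33. The median was -0.21 for 87 single-exon transcripts and -0.27 for 346 with more exons. It was -0.27 for the 229 with AATAAA near an annotated end and -0.26 for the 204 without. In each of these subsets over 60% of the transcripts were negative. Differences between subsets were not tested.

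The machinery that ends and degrades upstream transcripts was measured through 57 genes, all of them tested: 3 of the U1 particle, 11 of the exosome, 10 of its nuclear adaptors, 2 of the restrictor complex, 14 of Integrator and 17 of cleavage, polyadenylation and termination. edgeR and DESeq2 each called 0 of them, and 0 had an unadjusted edgeR p under 0.05. Their log2 fold changes ran from -0.53 to 0.50 with a median of 0.03, 33 positive and 24 negative. The 3 with the smallest p were INTS14, FIP1L1 and SRRT. INTS14, an Integrator subunit, was at 27.7, 31.6, 17.5 and 24.01 CPM, lower in both U1_OE libraries (log2 fold change -0.51 ± 0.21, edgeR adjusted p = 0.561). FIP1L1, which binds polyadenylation signals as part of the cleavage complex, was at 45.9, 46.7, 55.9 and 56.8 CPM (0.28 ± 0.12, adjusted p = 0.571). SRRT, which links the RNA cap to the exosome, was at 67.3, 62.3, 95.8 and 74.3 CPM (0.39 ± 0.17, adjusted p = 0.576). Both were higher in both U1_OE libraries.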

How the data were processed

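RNA-seq of 4 libraries, 2 control and 2 U1_OE, was analysed from 1 table of estimated counts per gene that the authors deposited, not normalised and with fractions whose origin the sources used here do not give. The submitters' processing notes name hg38 and the tools STAR, Trim Galore, DESeq2 and featureCounts, without versions or roles. Values were rounded to whole numbers. edgeR 4.0.16 in R 4.3.3 (filterByExpr, TMM, quasi-likelihood test, Benjamini-Hochberg adjustment over all 17317 tested genes, threshold 0.05) compared the groups, after a check on simulated data. DESeq2 1.42.0 and limma 3.58.1 were alternatives, beside RLE factors, other filters and pseudocounts, a replicate block and each library left out. Standard errors of edgeR were worked back from its F statistic. Log2 fold changes over rows outside the filter came from the same fit without it.

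Named with values were the 6 most abundant divergent transcripts, those called, the 8 largest differences each way with groups apart and a mean of at least 10 counts, the 5 largest pair differences each way, and any at 0 in 1 group only. The members and lists were chosen with earlier results of these data known. Positions and spliced transcripts came from GENCODE v29, which names 82.4% of all rows, and promoter letters from RefSeq. The unspliced sequence past each start site and its 5′ splice sites were not analysed here. U1 snRNA itself was not analysed here.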

Additional observations from a re-analysis of the deposited data

How the results depend on the processing

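Under RLE size factors, no filter, a filter at 50 counts, limma-voom, the replicate block and each library left out, edgeR or limma-voom called 0 genes, 0 divergent transcripts, 0 partners and 0 termination and decay factors. DESeq2 called 179 genes, 1 divergent transcript and 4 partners.

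The median log2 fold change of tested divergent transcripts, -0.22, was negative in every alternative: -0.25 without the filter, -0.16 with at least 50 counts in a filter set before the fit, -0.24 with DESeq2 and -0.24 with limma-voom. With single libraries left out it ran from -0.36 to -0.22, lowest without U1_OE 1. The partner median, 0.01, became -0.0076 with at least 50 counts and ran from -0.013 to 0.044 with libraries left out. The median pair difference, -0.19, was -0.15 without the filter, -0.26 and -0.12 with 0.1 and 2 CPM as the pseudocount, -0.25 over the 51 pairs that overlap no other gene, and -0.26 to -0.14 with libraries left out. The ratio of summed levels, 0.871, ran from 0.842 to 0.900. The cause of these shifts was not tested.

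Replicate numbers pair the libraries by name only, and same-numbered libraries did not deviate together (correlation -0.0823 over tested genes). With the replicate block the medians were -0.22 for divergent transcripts, 0.016 for partners and, since the ratio is taken within a library, -0.19 for pairs. The block gives no value for the summed level.

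Single transcripts changed direction in 8 of 233 refits, all with 1 library left out. All 8 were in transcripts whose own groups overlapped. Most of the other named transcripts had groups apart, which leaving out 1 library can hardly reverse. The share of 8 in 233 thus says nothing about how stable the directions are. With libraries left out in turn BAIAP2-DT ran from -0.18 to 0.037 (positive without control 2), and ANKRD13C-DT from -0.41 without U1_OE 1 through -0.037 without control 2 to 0.54. SLC12A2-DT ran from -0.32 to 0.13 without U1_OE 1 and 0.17 without control 1. NCK1-DT ran from -0.086 without U1_OE 1 to 1.13, and ADM-DT from -0.38 to 0.093 without control 2 and 0.23 without U1_OE 1. Depth limits the 187 of the 448 with a mean under 10 counts most. Where 1 library was left in a group, its spread was taken from the other group.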

Other observations

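Divergent transcripts of zinc finger genes (symbols that begin with ZNF, ZFP, ZKSCAN, ZSCAN or ZBTB) were looked at after the values were seen. There were 19, with a median log2 fold change of -0.14, and 13 were negative. Both U1_OE libraries were below both controls in 7 and above both in 0, where the shares over all rows of the table were 19.6% and 17.3%. The 429 others had a median of -0.26, with 119 apart and lower and 43 apart and higher. The difference between the 19 and the others was not tested.

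JUN-DT, beside the gene of the early response factor JUN, was at 1.71, 1.44, 0.616 and 4.14 CPM, and SOCS3-DT, beside a feedback inhibitor of cytokine signalling, at 1.65, 1.11, 2.46 and 0.839 CPM. In both the U1_OE libraries stood on either side of the controls. Both were picked after their values were seen.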
